A study of Homo sapiens with 12 samples.

Results

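The genes described here are 40 nuclear genes for the machinery that builds and maintains mitochondria: 6 chaperones and co-chaperones, 8 proteases, 7 prohibitin, insertase and cristae scaffold genes, 4 subunits of the outer membrane translocase, 5 genes of the inner membrane translocases, 3 fusion genes, 6 fission and mitophagy genes, and TFAM. They were taken by gene symbol from the gene table, which lists 19771 protein-coding genes. The rule that picks them uses no measured value, though the list was drawn up with earlier results of these data known. All 40 were listed once, and all 40 passed the filter on low values (a mean of at least 1 FPKM, a fragment count scaled by transcript length and library size, over all libraries), as did 10925 genes in all.

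Nearly all mitochondrial proteins are made in the cytosol as precursors. The TOM complex receives them at the outer membrane, the TIM23 complex passes those with a presequence into the matrix with the pull of the mitochondrial Hsp70 HSPA9, and the HSPD1/HSPE1 chaperonin folds many of them there. Proteases of the matrix and inner membrane remove damaged or unassembled proteins, while mitofusins, OPA1 and the dynamin DNM1L set the balance of fusion and division. When folding inside the organelle fails, cells can raise chaperone and protease transcripts through a response that, in mammals, involves the transcription factors ATF4, ATF5 and DDIT3 (CHOP).

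The study compared TE-1 cells, a line of human oesophageal cancer cells, with IFI6 raised or lowered. IFI6 is an interferon-inducible gene whose small membrane protein has been placed in mitochondria and in the endoplasmic reticulum. There were 4 groups of 3 libraries: cells given an overexpression vector for IFI6 (OE_IFI6), cells given the matching control vector (OE_control), cells given a hairpin interference vector against IFI6 (sh_IFI6), and cells given the hairpin control (sh_control). All were transfected TE-1 cells cultured for 48 h in DMEM with fetal bovine serum, and sequenced as total RNA in long non-coding RNA libraries. Nothing in the labels shows that replicates were independent cultures, and each p-value therefore reflects only library-to-library spread, which may be technical. Cells were sequenced in bulk, so fewer cells of one state and less RNA per cell cannot be told apart.

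IFI6 itself was at 27.3, 17.9 and 28.8 FPKM in OE_control and at 309, 268 and 358 FPKM in OE_IFI6, a log2 fold change of 3.62 ± 0.17 (SE; limma adjusted p = 4.7e-07). In OE_IFI6 against sh_control, IFI6 was higher by 3.67 (limma adjusted p = 8.1e-07). It was at 24.9, 24.1 and 21.2 FPKM in sh_control and at 15.1, 13.9 and 14.7 FPKM in sh_IFI6, which is 62.3% of the control (log2 fold change -0.64 ± 0.17 SE). The groups did not overlap, but the knockdown difference did not pass the adjustment over all genes (limma adjusted p = 0.82). Per library, 10650 to 10987 protein-coding genes were at 1 FPKM or more, and Pearson correlations of log2(FPKM + 1) ran from 0.967 to 0.978 within groups. The files give no read counts, so the depth behind each value is unknown. OE_control was the group that stood apart. Between OE_IFI6 and OE_control 837 genes passed the test, and 822 did between the OE_control and sh_control vectors. Between OE_IFI6 and sh_control 2 passed, of which IFI6 was 1. For that reason the log2 fold change of OE_IFI6 against sh_control, which does not use the OE_control values, is given beside the overexpression result of each gene described in full. Its SE, interval and p still draw on the OE_control libraries, through the spread shared by all 12. The epithelial keratins KRT8 and KRT18 were high (930.3 and 439 FPKM on average over the 12 libraries), whereas EPCAM was listed at 0 and CDH1 averaged 0.0420 FPKM. A list of 7 squamous and basal markers, in which KRT5, KRT6A and SOX2 were listed at 0 and only KRT17 averaged 1 FPKM or more, summed to 2.82 to 4.40 FPKM in OE_control libraries and to 0.518 to 1.45 FPKM in the other 9. The part of these markers in the results that rest on OE_control was not tested. Fibroblast markers and immune and endothelial markers were low throughout, with the highest library sum at 9.42 and 2.01 FPKM respectively.

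Most of the 40 genes were well expressed. In sh_control their median level was 32.1 FPKM, against 9.87 FPKM for all genes tested, with 6 genes at 100 FPKM or more, 28 between 10 and 100 FPKM and 6 below 10 FPKM. FPKM is scaled by transcript length, so levels may be compared between genes. The order in sh_control opened with PHB2, a prohibitin of the inner membrane, at 342 ± 26.4 FPKM (mean ± SD, n = 3), and the chaperonin subunit HSPD1 at 317 ± 8.22 FPKM. These neighbours overlapped. HSPA9 followed at 171 ± 27.9 FPKM, then the other prohibitin PHB at 133 ± 4.59 FPKM, and then the Hsp90 relative TRAP1 and the prohibitin-related STOML2 at 120.2 and 115 FPKM. At the foot of the order stood the cristae gene CHCHD6 at 7.17 FPKM, the fission adaptor MIEF2 at 4.75 FPKM, the small TIM chaperone TIMM13 at 4.63 FPKM, and HSPE1 at 1.33 FPKM. Of the 39 pairs of neighbours in this order, 7 had groups of libraries that did not overlap, namely the steps below HSPD1, HSPA9, PHB, STOML2, TIMM23, TFAM and TIMM13. The other neighbours did not differ beyond their spread.

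**Figure D1:**
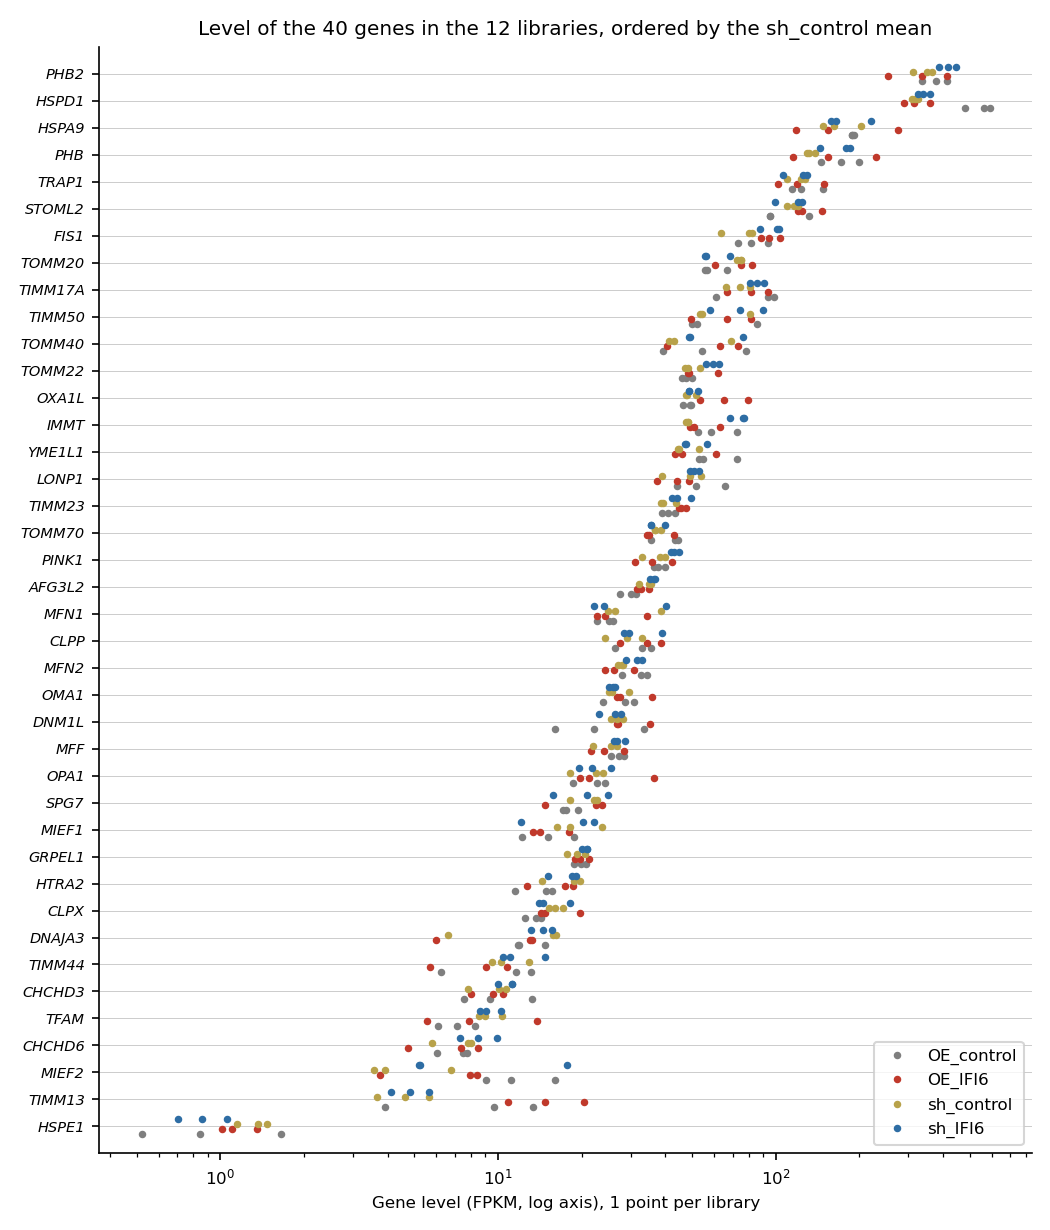
Levels of the 40 genes in FPKM (log axis) in the 12 libraries, 1 point per library, coloured by group and ordered by the mean in sh_control. PHB2 and HSPD1 lie at the top and HSPE1 near 1 FPKM, and the OE_control points of HSPD1 lie to the right of its other 9.

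Few of the 40 genes were called with IFI6 raised or lowered. Between OE_IFI6 and OE_control, 1 of 40 passed the limma test at an adjusted p of 0.05, and it fell (7.66% of all genes tested passed, 3.56% as falls and 4.1% as rises). The median log2 fold change of the 40 genes was 0.03, beside 0.05 for all genes tested, and 21 of 40 were above 0 (6186 of all 10925). Libraries of these groups did not overlap for 5 of the 40 genes (12.5%), beside a background of 23.3% over all genes tested: AFG3L2, OXA1L and TIMM23 were higher in OE_IFI6, and HSPD1 and MIEF2 were lower. Both shares of the 40 genes lay below those of all genes. Between sh_IFI6 and sh_control, 0 of 40 passed, where 0% of all genes tested did, and the same count of 0 was found in each of the 11 alternative limma settings. At an unadjusted limma p under 0.05 there were 4 of the 40 and 563 of all 10925 genes. The median log2 fold change of the 40 genes was 0.10, beside 0.00 for all genes, with 30 of 40 above 0 (5563 of all 10925). Libraries did not overlap for 11 of 40 genes (27.5%, background 19.1%). These knockdown shares lay above those of all genes, a difference that was not tested. HSPD1, PHB, PHB2, IMMT, TOMM22, TIMM17A, MFN2, FIS1 and PINK1 were the 9 higher in sh_IFI6, and HSPE1 and TOMM20 were the 2 lower.

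Against the other control, 0 of 40 genes passed between OE_IFI6 and sh_control (background 0.0183%). At an unadjusted limma p under 0.05 there were 3 of the 40 and 503 of all genes. Libraries of these groups did not overlap for 6 of 40 (15%; background 9.54%), with STOML2, OXA1L, IMMT, TIMM13, TIMM23 and FIS1 higher in OE_IFI6. Between the controls themselves, 1 of 40 passed (background 7.52%, 2.75% as higher in OE_control), and 8 of 40 did not overlap (20%; background 30.4%). The test of the difference between the overexpression and knockdown effects called 1 of 40 (background 2.69%, 1.51% in the same direction and 1.18% in the other). The gene that passed was HSPD1 in all 3 cases. OE_control is shared by the overexpression and the control comparison, so their values for a gene are set side by side and not counted as separate evidence.

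**Figure D2:**
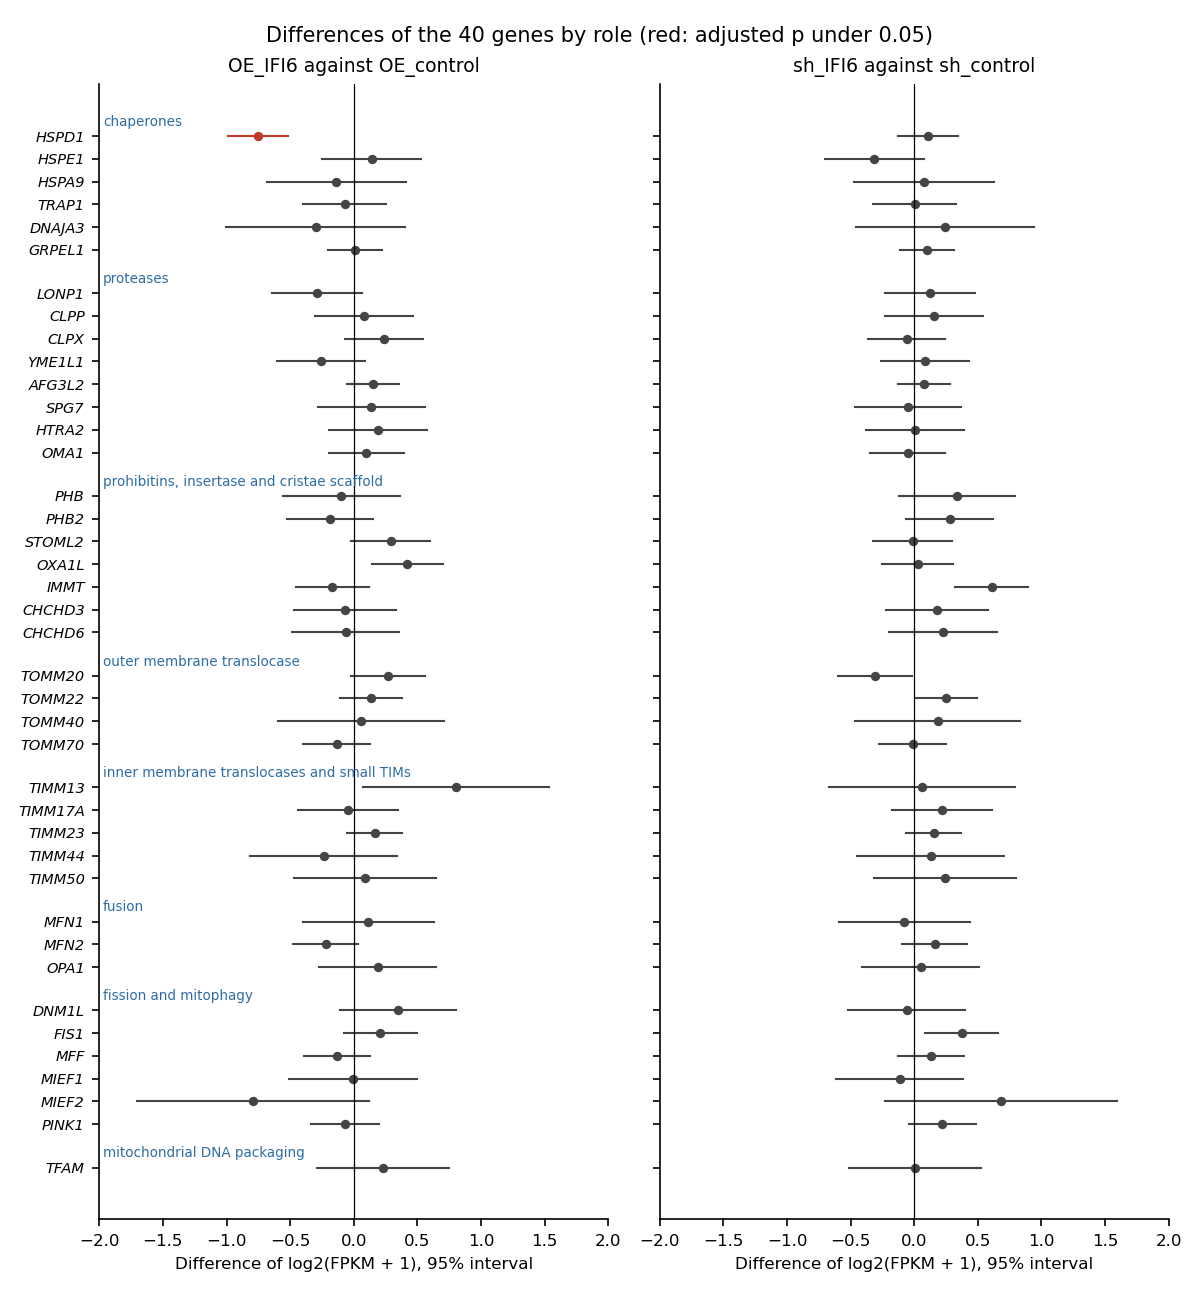
Differences of the 40 genes on the log2(FPKM + 1) scale, with 95% confidence intervals, ordered by role, for OE_IFI6 against OE_control (left) and sh_IFI6 against sh_control (right); red marks an adjusted p under 0.05. HSPD1 at -0.75 is the single red point, and IMMT has the knockdown value of 0.61 that did not pass.

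Of the chaperones, HSPD1 was the one that changed. HSPD1 (ENSG00000144381, given in the table as chr2:197486584-197516737) encodes HSP60, the large subunit of the matrix chaperonin. It was at 561, 589 and 479.8 FPKM in OE_control and at 290.2, 359.9 and 315 FPKM in OE_IFI6. It was at 308, 325 and 317 FPKM in sh_control and at 339.5, 326 and 361 FPKM in sh_IFI6. The 3 OE_control libraries were the highest of the 12, and the other 9 spanned 290.2 to 361 FPKM. HSPD1 fell in OE_IFI6 to 59.2% of OE_control (543 ± 56.8 to 322 ± 35.3 FPKM; mean ± SD, n = 3 each), a log2 fold change of -0.75 ± 0.11 (SE; limma adjusted p = 0.0017, and 0.00255 to 0.00868 when any 1 library was left out). Over the 10 other limma settings the adjusted p ran from 0.00093 to 0.0451. OE_control was likewise above sh_control by 0.77 ± 0.11 on the log2 scale (adjusted p = 0.0016), at 171% of it. The difference was not seen in OE_IFI6 against sh_control, whose fold change does not use the OE_control values: it was 0.02 ± 0.11 (95% confidence interval -0.22 to 0.25). The knockdown gave 0.11 ± 0.11 (adjusted p = 0.85), with the lowest sh_IFI6 library just above the highest sh_control library. The overexpression effect minus the knockdown effect was -0.86 ± 0.15 (adjusted p = 0.014), a call that was lost under quantile normalization (adjusted p = 0.0708).

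The HSPD1 signal lay in its main coding transcript. HSPD1-201 made up 72.2% to 81.4% of the summed HSPD1 transcripts in every library. It was at 456, 456 and 386 FPKM in OE_control and at 229.7, 284 and 234 FPKM in OE_IFI6. In the hairpin groups it was at 239, 233 and 254 FPKM (sh_control) and at 265, 254 and 271 FPKM (sh_IFI6). The OE_control libraries were again the highest of the 12. HSPD1-201 fell by 0.80 ± 0.10 on the log2 scale between OE_control and OE_IFI6 (adjusted p = 0.0048; 1.73% of 17030 messenger transcripts tested passed), and it was the 1 call among 84 tested messenger transcripts of the 40 genes. OE_control was higher than sh_control by 0.83 (adjusted p = 0.0040; background 1.54%), OE_IFI6 against sh_control gave 0.04 (background 0.0411%), and the effects of overexpression and knockdown differed by -0.92 (adjusted p = 0.027; background 0.528%).

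HSPD1 sits head to head with HSPE1, the gene of its co-chaperonin HSP10, and the sequence around their starts is shown because HSPD1 is the gene whose level differed. Both windows are RefSeq promoter entries of HSPD1 on GRCh38.p14 (minus strand), from 250 bases before to 50 bases after an annotated start. Capitals mark matches on either strand to motifs searched in all promoters: the heat shock element pairs GAANNTTC and TTCNNGAA, the CHOP core TGCAAT (its complement reads ATTGCA) and the E-box CACGTG.

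HSPD1, chr2:197499791-197500090: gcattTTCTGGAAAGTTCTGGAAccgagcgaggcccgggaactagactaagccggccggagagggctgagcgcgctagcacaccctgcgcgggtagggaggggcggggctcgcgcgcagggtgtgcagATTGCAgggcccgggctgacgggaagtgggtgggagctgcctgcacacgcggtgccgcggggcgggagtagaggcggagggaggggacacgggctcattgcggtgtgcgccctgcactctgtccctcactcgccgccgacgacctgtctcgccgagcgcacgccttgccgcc

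HSPD1, chr2:197500225-197500524: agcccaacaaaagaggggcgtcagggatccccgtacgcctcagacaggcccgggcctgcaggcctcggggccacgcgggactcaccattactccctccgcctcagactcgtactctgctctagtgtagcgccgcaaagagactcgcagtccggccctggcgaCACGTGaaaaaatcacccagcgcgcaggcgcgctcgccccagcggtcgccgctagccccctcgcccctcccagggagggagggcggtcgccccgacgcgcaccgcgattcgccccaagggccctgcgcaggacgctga

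The first window holds TTCTGGAA at 245 and at 235 bases before its start, with an overlapping GAAAGTTC between them at 240 bases, and ATTGCA at 122 bases. That window lies wholly downstream of the start of HSPD1-201 (197500274), inside the span of that transcript, and so do its matches. The second, whose start is that of HSPD1-201, holds CACGTG at 88 bases before it and no heat shock element pair. It shares 204 bases, on the opposite strand, with the RefSeq promoter of HSPE1, where the same CACGTG lies 22 bases before the start. Among promoters of the 40 genes, 44 entries of 35 genes were in the table of 35116, and GRPEL1, YME1L1, CLPP, PHB and PINK1 were not matched. TTCNNGAA was in 13.6% of the members' entries and 7.74% of all entries, GAANNTTC in 2.27% and 6.77%, TGCAAT in 6.82% and 8.21%, and CACGTG in 11.4% and 7.26%. The ATF4 and CHOP composite TGATGNAAT was in 0.99% of all entries and in 0% of the members'. The NRF1 motif TGCGCANGC, named for a regulator of nuclear genes of mitochondrial proteins, was in 18.2% of the members' entries (DNM1L, FIS1, IMMT, LONP1, OMA1, OPA1, OXA1L and TOMM20) and 4.39% of all. These are matches of letters in a window and were not tested against binding.

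HSPE1 (ENSG00000115541, chr2:197500140-197503449) had values between 0.521 and 1.66 FPKM over the 12 libraries, with means of 1.01, 1.16, 1.33 and 0.875 FPKM in OE_control, OE_IFI6, sh_control and sh_IFI6. Its messenger transcript HSPE1-201 was at 0.104 FPKM or less in every library, and HSPE1-204, a retained-intron transcript, led in all 12. As listed, the HSPE1 interval lies inside that of HSPD1 and on the opposite strand, and an assembled read-through transcript assigned to HSPE1-MOB4 spans both genes. No source used here gives whether counting used strand, so reads of these genes may have been divided between entries and the HSPE1 level is uncertain. The read-through transcript was at 9, 7.4 and 6.89 FPKM in OE_control and between 3.68 and 4.78 FPKM in the other 9 libraries. Its high libraries were those of HSPD1.

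The other 4 chaperones did not pass. HSPA9, the mitochondrial Hsp70 (mortalin), was at 188, 191 and 188 FPKM in OE_control and at 118, 276 and 155 FPKM in OE_IFI6, so the OE_IFI6 libraries lay on both sides of the control (log2 fold change -0.14, 95% confidence interval -0.69 to 0.41). TRAP1 kept between 102 and 149 FPKM in every library, and its fold change was -0.07 with overexpression and 0.00 with knockdown. The co-chaperone DNAJA3 ranged from 5.96 to 16.2 FPKM, with low single libraries in OE_IFI6 and in sh_control. GRPEL1, the nucleotide exchange factor of HSPA9, was among the steadiest: all 12 libraries lay between 17.7 and 21.2 FPKM, and the overexpression log2 fold change was 0.01 (95% confidence interval -0.20 to 0.22).

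Of the 8 proteases, 0 passed in any comparison, with overexpression adjusted p-values of 0.31 to 0.84. The smallest p was that of LONP1, the AAA+ protease of the matrix (ENSG00000196365, chr19:5691834-5720572). It was at 44.1, 51.6 and 65.8 FPKM in OE_control and at 44.1, 37.4 and 48.9 FPKM in OE_IFI6. It was at 38.9, 53.7 and 49 FPKM in sh_control and at 50.9, 52.9 and 49.2 FPKM in sh_IFI6. The groups overlapped in both comparisons, and the log2 fold change was -0.29 ± 0.16 (SE, adjusted p = 0.31). When any 1 of the 6 libraries compared was left out, it ran from -0.42 to -0.14 (without OE_control replicate 3). Against sh_control it was -0.11. AFG3L2, a subunit of the m-AAA protease that degrades inner membrane proteins, was at 27.4, 30.2 and 31.5 FPKM in OE_control and at 31.7, 32.7 and 34.9 FPKM in OE_IFI6. The groups did not overlap, yet the difference of 0.15 was small and did not pass (adjusted p = 0.36), and sh_control lay as high at 32.1, 35.5 and 35 FPKM (OE_IFI6 against sh_control -0.05). SPG7, its partner subunit, ranged from 14.8 to 24.8 FPKM with overlapping groups. The matrix peptidase CLPP ranged from 24.2 to 39 FPKM and its unfoldase CLPX from 12.5 to 19.7 FPKM. YME1L1, the i-AAA protease, ranged from 43.3 to 72.3 FPKM, OMA1, which cleaves OPA1 under stress, from 23.9 to 35.8 FPKM, and HTRA2, a protease of the intermembrane space, from 11.5 to 19.8 FPKM.

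Among the prohibitins, insertase and cristae genes, no gene passed, but OXA1L and IMMT came closest. OXA1L (ENSG00000155463, chr14:22766522-22773041) encodes the insertase that places mitochondrially made proteins in the inner membrane. It was at 46.3, 49.1 and 49.4 FPKM in OE_control and at 65, 53.2 and 79.2 FPKM in OE_IFI6. It was at 47.9, 47.6 and 51.4 FPKM in sh_control and at 52.4, 48.8 and 48.7 FPKM in sh_IFI6. All 3 OE_IFI6 libraries lay above the other 9, which spanned 46.3 to 52.4 FPKM. The log2 fold change against OE_control was 0.42 ± 0.13 (SE; 95% confidence interval 0.14 to 0.70; adjusted p = 0.068), and against sh_control it was 0.40 (adjusted p = 0.94). The overexpression value passed under quantile normalization (adjusted p = 0.0498) and without OE_IFI6 replicate 2, the lowest of its group (0.56, adjusted p = 0.0185).

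Of the OXA1L transcripts, 1 model passed. OXA1L-207, listed among non-coding transcripts, was at 4.29, 4.13 and 4.63 FPKM in OE_control and at 40.9, 16.1 and 51.3 FPKM in OE_IFI6. It was at 1.76 to 3.99 FPKM in sh_control and at 1.29 to 3.19 FPKM in sh_IFI6. OXA1L-207 rose by 2.65 ± 0.41 on the log2 scale (adjusted p = 0.038; 0.246% of 6496 transcripts of that table passed), as the 1 call among 49 tested transcripts of the 40 genes there. The overexpression call was lost with a pseudocount of 0.1 (adjusted p = 0.0548), with no filter on low values (0.166), and without any 1 of OE_control replicates 1, 2 or 3 (0.101, 0.0964 and 0.0739) or OE_IFI6 replicates 1 or 3 (0.126 and 0.0803). Against sh_control it gave 3.19 (adjusted p = 0.031; background 0.0462%), a call lost with a pseudocount of 0.1 (0.0705), with no filter (0.125), and without OE_IFI6 replicate 1 (0.117) or any 1 of sh_control replicates 1, 2 and 3 (0.0563, 0.153 and 0.116). OXA1L-209, a model close to it, was at 3.72, 18.2 and 18.3 FPKM in OE_control and was listed at 0 in all 3 OE_IFI6 libraries. In sh_control it was at 13, 12.7 and 31.5 FPKM and in sh_IFI6 at 28.3, 4.69 and 7.09 FPKM.

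The sequence of the models OXA1L-207 and OXA1L-209 is shown because the assignment of reads between them bears on the call. In GENCODE 29, OXA1L-207 has 1596 bases in 8 exons and OXA1L-209 has 1679 bases in 9 exons, both on the plus strand. OXA1L-207 starts at 22767282, which is 603 bases downstream of OXA1L-212, and OXA1L-209 starts at 22766703. Both retain the intron that the 10-exon transcript OXA1L-212 removes between its exons 5 and 6, at chr14:22770279-22770460 (182 bases, 41.8% G + C). Its sequence follows, with the GT and AG at its ends in capitals.

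Retained OXA1L intron: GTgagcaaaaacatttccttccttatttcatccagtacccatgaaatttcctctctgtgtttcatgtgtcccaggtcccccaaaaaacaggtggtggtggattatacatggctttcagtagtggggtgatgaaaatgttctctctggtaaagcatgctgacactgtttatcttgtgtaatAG

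Upstream of it the models differ, besides their starts, in where an exon opens, at 22769791 in one and 22769797 in the other, which adds 6 bases, in capitals below.

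OXA1L-207: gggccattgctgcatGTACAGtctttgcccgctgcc

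OXA1L-209: gggccattgctgcattctttgcccgctgcc

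Added together in an alternative chosen after the values were seen, OXA1L-207 and OXA1L-209 were at 8.01, 22.4 and 22.9 FPKM in OE_control and at 40.9, 16.1 and 51.3 FPKM in OE_IFI6. They were at 17, 15.3 and 33.2 FPKM in sh_control and at 29.6, 7.88 and 10.1 FPKM in sh_IFI6. The groups overlapped in both comparisons, and the sum did not pass against OE_control (log2 fold change 0.97, adjusted p = 0.589) or sh_control (0.63, adjusted p = 0.945). In OE_IFI6 replicate 2 the sum lay below 2 of the OE_control libraries. As a share of OXA1L the sum was 36.4% ± 16.6 (SD, n = 3) in OE_control, 52.7% ± 19.4 in OE_IFI6, 44.1% ± 17.9 in sh_control and 31.1% ± 22.1 in sh_IFI6. OXA1L-212 was at 32.7, 24.1 and 25 FPKM in OE_control and at 17.1, 36 and 18.3 FPKM in OE_IFI6. OXA1L-211, a further non-coding model, did not pass (log2 fold change 0.69, adjusted p = 0.57).

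**Figure D3:**
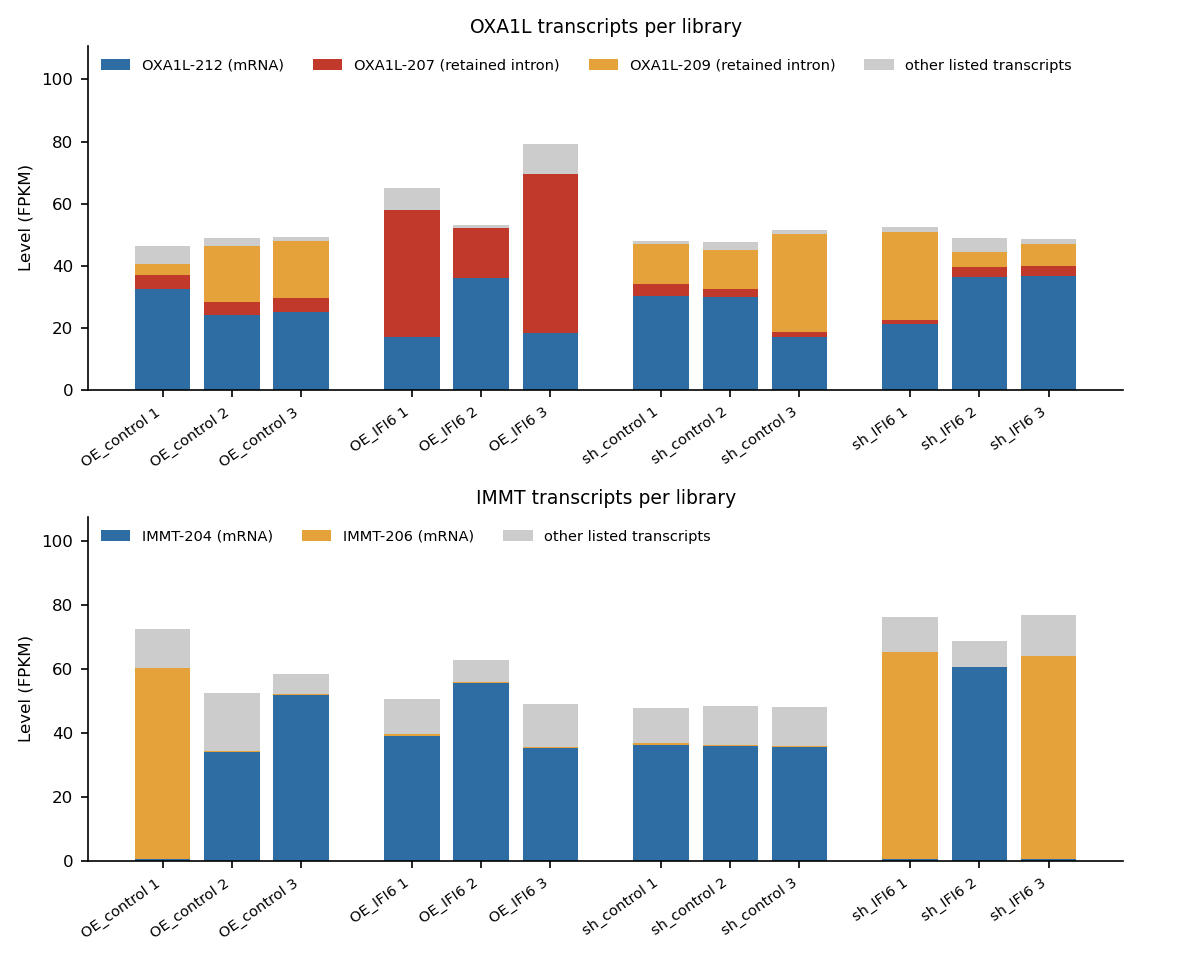
Stacked FPKM of the transcripts of OXA1L (top) and IMMT (bottom) in each of the 12 libraries, by group. OXA1L-207 is high in the 3 OE_IFI6 libraries, where OXA1L-209 is listed at 0, and in every library 1 of IMMT-204 and IMMT-206 is below 1 FPKM.

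IMMT (ENSG00000132305, chr2:86143932-86195770) encodes mitofilin, the core of the MICOS complex that shapes crista junctions. It was at 47.6, 48.3 and 48.2 FPKM in sh_control and at 76, 68.7 and 76.8 FPKM in sh_IFI6. It was at 72.3, 52.5 and 58.4 FPKM in OE_control and at 50.6, 62.9 and 48.9 FPKM in OE_IFI6. The sh_control libraries were the lowest of the 12 with an SD of 0.352 FPKM, and the sh_IFI6 libraries overlapped with 1 OE_control library. sh_IFI6 was at 154% of sh_control, a log2 fold change of 0.61 ± 0.13 (SE; 95% confidence interval 0.32 to 0.89) with a limma p of 0.00062 that did not pass over all genes (adjusted p = 0.72). The overexpression value was -0.17 (adjusted p = 0.49), and OE_IFI6 against sh_control gave 0.16. The difference between the effects was -0.78 ± 0.19 and just missed the threshold (adjusted p = 0.0502). It passed with a minimum mean of 5 FPKM (0.0452), with robust variance estimation (0.0485), and without OE_control replicate 2 or OE_IFI6 replicate 2 (0.0350 each).

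At transcript level IMMT was divided between models in an all-or-none way. IMMT-206 was at 59.8 FPKM in OE_control replicate 1 and at 64.6 and 63.3 FPKM in sh_IFI6 replicates 1 and 3, and below 1 FPKM in the other 9 libraries. IMMT-204 was below 1 FPKM in those same 3 libraries and between 33.9 and 60.4 FPKM in the others. Their sum was at 37, 36.2 and 35.9 FPKM in sh_control and at 65.2, 60.7 and 64 FPKM in sh_IFI6, with no overlap. MIEF2-201 and MIEF2-204 alternated in a similar manner in OE_control. Over the 40 genes, the same transcript led in all 12 libraries for 18, and 22 had more than 1 leading transcript. A change of a single model was therefore read beside its gene's total.

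PHB and PHB2 form the ring complexes that scaffold the inner membrane. PHB2 was at 378, 336 and 413 FPKM in OE_control and at 337, 255 and 412 FPKM in OE_IFI6, with overlap. In sh_control it was at 313, 351 and 364 FPKM and in sh_IFI6 at 446, 416 and 386 FPKM. PHB was at 130.1, 139 and 132 FPKM in sh_control and at 144, 185 and 179.6 FPKM in sh_IFI6. All sh_IFI6 libraries lay above sh_control for both genes, with log2 fold changes of 0.28 and 0.34 that did not pass (adjusted p = 0.82 each). STOML2, which binds cardiolipin and prohibitins, was higher in OE_IFI6 by 0.29 (adjusted p = 0.25) with overlapping groups. The MICOS subunits CHCHD3 and CHCHD6 ranged from 7.52 to 13.3 FPKM and from 4.75 to 9.89 FPKM, with overlap in each comparison.

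**Figure D4:**
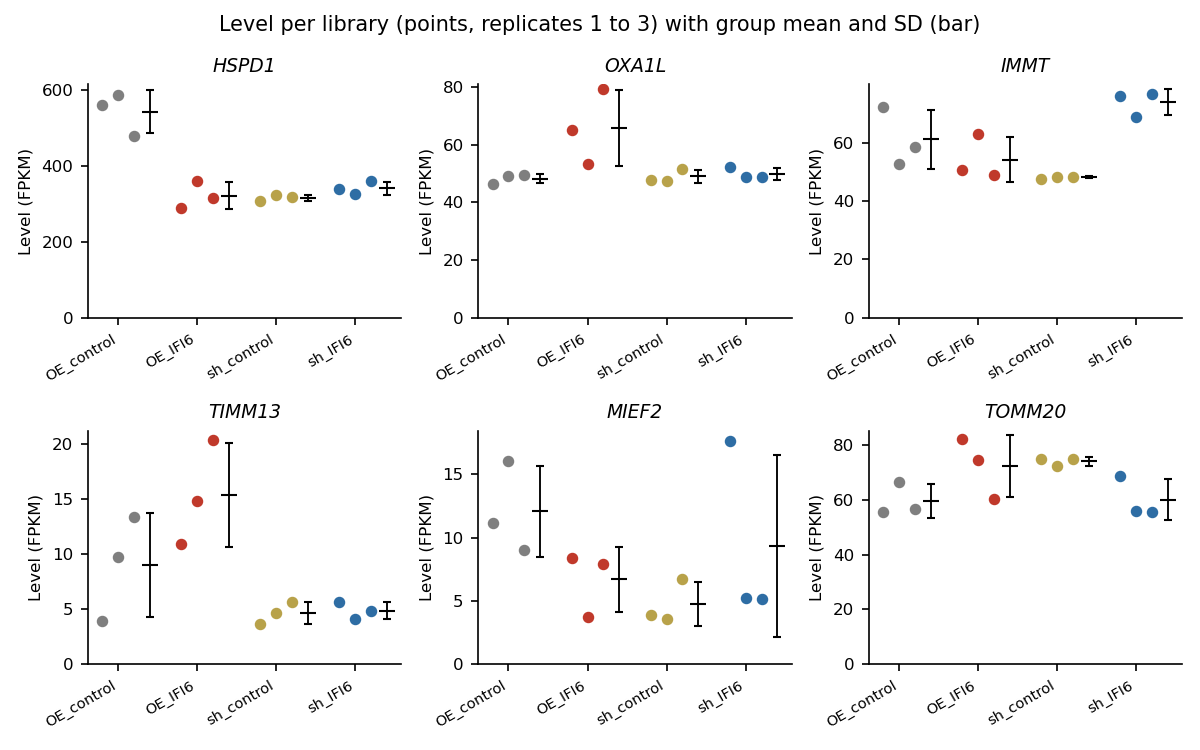
FPKM of HSPD1, OXA1L, IMMT, TIMM13, MIEF2 and TOMM20 in each of the 12 libraries by group (points), with the group mean and SD (bar). HSPD1 is high in the 3 OE_control libraries and OXA1L in the 3 OE_IFI6 libraries. IMMT is higher in sh_IFI6 than in sh_control, and OE_control replicate 1 (72.3 FPKM) lies within the sh_IFI6 range.

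None of the 4 TOM genes passed. TOMM20, a receptor for presequences at the outer membrane (chr1:235109341-235128837), was at 55.5, 66.6 and 56.7 FPKM in OE_control and at 82.3, 74.7 and 60.2 FPKM in OE_IFI6. It was at 75, 72.3 and 75 FPKM in sh_control and at 68.6, 55.9 and 55.5 FPKM in sh_IFI6. OE_IFI6 and OE_control overlapped, and sh_IFI6 lay below sh_control in all 3 libraries. The log2 fold change of TOMM20 was 0.27 ± 0.13 with overexpression (adjusted p = 0.25), -0.04 for OE_IFI6 against sh_control, and -0.31 with knockdown (adjusted p = 0.82). TOMM22, the receptor that joins the complex, was at 48.5, 47.2 and 53.3 FPKM in sh_control and at 56.3, 62.3 and 59.4 FPKM in sh_IFI6, without overlap (0.25, adjusted p = 0.82). TOMM70, the receptor for carrier precursors, ranged from 34.3 to 44.3 FPKM. TOMM40, the channel itself, was among the most variable of the 40 genes, from 39.2 to 78.1 FPKM, and its coefficient of variation within groups was 30.1%, beside a median of 14.2% for the 40 genes.

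At the inner membrane, TIMM13 had the smallest p. TIMM13 (chr19:2425625-2427586) encodes a small chaperone that carries hydrophobic precursors across the intermembrane space. It was at 3.93, 9.7 and 13.4 FPKM in OE_control and at 10.9, 14.8 and 20.3 FPKM in OE_IFI6. It was at 3.67, 4.62 and 5.62 FPKM in sh_control and at 5.64, 4.11 and 4.81 FPKM in sh_IFI6. OE_IFI6 lay above both hairpin groups in all 3 libraries and overlapped with OE_control, which was itself spread over a wide range. The log2 fold change was 0.80 ± 0.33 (SE, adjusted p = 0.17) against OE_control and 1.51 ± 0.33 (adjusted p = 0.60) against sh_control. The value against OE_control ran from 0.36 (without OE_control replicate 1) to 1.13 when any 1 of the 6 libraries compared was left out. TIMM23, the channel of the presequence translocase, was at 40.8, 38.8 and 43.4 FPKM in OE_control and at 44.9, 45.7 and 47.4 FPKM in OE_IFI6. These groups did not overlap, at 112% of the control, and the difference did not pass. TIMM23 has a near-identical copy, TIMM23B, between which reads may be divided, so its level is uncertain. TIMM17A, its partner in the channel, ranged from 60.8 to 98.2 FPKM, TIMM50, the receptor of the complex, from 49.5 to 90 FPKM, and TIMM44, which tethers HSPA9, from 5.7 to 14.8 FPKM.

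None of the 3 fusion genes passed. MFN2, an outer membrane mitofusin, had the smallest p. It was at 27.9, 34.4 and 32.7 FPKM in OE_control and at 24.2, 26.1 and 30.9 FPKM in OE_IFI6. It was at 27, 27.8 and 28.3 FPKM in sh_control and at 28.8, 32.9 and 31.7 FPKM in sh_IFI6. The overexpression groups overlapped (log2 fold change -0.22 ± 0.12 SE; adjusted p = 0.29; -0.04 against sh_control), and the knockdown groups did not, at 112% of control. The other mitofusin MFN1 ranged from 22.1 to 40.4 FPKM, and OPA1, the dynamin of inner membrane fusion, from 18.1 to 36.6 FPKM, with OE_IFI6 replicate 2 the highest.

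Among the fission and mitophagy genes, 0 of 6 passed. MIEF2, an outer membrane adaptor for DNM1L (chr17:18260597-18266552), was at 11.1, 16 and 9.06 FPKM in OE_control and at 8.4, 3.77 and 7.93 FPKM in OE_IFI6. It was at 3.92, 3.57 and 6.77 FPKM in sh_control and at 17.7, 5.23 and 5.17 FPKM in sh_IFI6. OE_control lay above OE_IFI6 and sh_control, and 1 sh_IFI6 library was the highest of the 12. The log2 fold change was -0.79 ± 0.42 with overexpression (adjusted p = 0.28). When any 1 of the 6 libraries compared was left out, it ran from -0.97 to -0.48 (without OE_IFI6 replicate 2). OE_IFI6 against sh_control gave 0.40, and OE_control against sh_control gave 1.19 (adjusted p = 0.11). Its coefficient of variation within groups, 45.4%, was the highest of the 40. FIS1, a tail-anchored outer membrane protein of fission, was at 81.8, 79.9 and 63.7 FPKM in sh_control and at 87.7, 103 and 101 FPKM in sh_IFI6, without overlap (0.37, adjusted p = 0.82). PINK1, the kinase that marks depolarized mitochondria for mitophagy, was at 33, 39.9 and 38.4 FPKM in sh_control and at 42, 44.9 and 42.9 FPKM in sh_IFI6, at 117% of control. DNM1L, the fission dynamin, ranged from 16.1 to 35.1 FPKM, its receptor MFF from 21.7 to 28.7 FPKM, and the adaptor MIEF1 from 12.1 to 23.7 FPKM.

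TFAM packages mitochondrial DNA and starts its transcription. It was at 6.08, 8.28 and 7.14 FPKM in OE_control and at 5.54, 13.8 and 7.86 FPKM in OE_IFI6. It was at 8.95, 10.3 and 8.54 FPKM in sh_control and at 9.08, 8.64 and 10.2 FPKM in sh_IFI6. The OE_IFI6 libraries spanned the whole range, and the log2 fold change of 0.23 ± 0.24 (SE; adjusted p = 0.62) became -0.09 without OE_IFI6 replicate 2, and OE_IFI6 against sh_control gave -0.11. The 13 messenger RNAs of mitochondrial DNA summed to 874 ± 166 FPKM in OE_control, 816 ± 16.9 in OE_IFI6, 1143 ± 162 in sh_control and 950.4 ± 129.6 in sh_IFI6 (mean ± SD, n = 3).

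Other genes of the same pathways were read against the share of all genes that passed between OE_IFI6 and OE_control (7.66%, 4.1% as rises and 3.56% as falls). Of 35 further import, processing and cristae genes tested, 2 rose and 0 fell. CHCHD4, the receptor of the disulfide relay in the intermembrane space, was at 10.2, 10.3 and 10.6 FPKM in OE_control and at 14.1, 14.2 and 16.1 FPKM in OE_IFI6, a rise of 0.47 ± 0.10 (adjusted p = 0.016). It was at 13.6 to 15.4 FPKM in sh_control, so OE_control was the low group, and OE_IFI6 against sh_control gave 0.01. OE_control was lower than sh_control by the test (-0.46, adjusted p = 0.017, lost without sh_control replicate 1 or 3 at 0.0661 and 0.0750). The overexpression call was lost when only these 6 libraries were fitted (0.15), as was that between the controls (0.059). MTX2, a metaxin of the outer membrane assembly machinery, was at 6.11, 7.7 and 7.97 FPKM in OE_control and at 9.63, 10.5 and 10.8 FPKM in OE_IFI6. It was at 8.64, 9.55 and 9.42 FPKM in sh_control. MTX2 rose by 0.46 against OE_control (adjusted p = 0.031) and OE_IFI6 against sh_control gave 0.15. The call was lost without OE_control replicate 1 (0.0827) or OE_IFI6 replicate 2 or 3 (0.0785 and 0.0660) and in a fit of the 6 libraries alone (0.193). IMMP1L, a subunit of the inner membrane peptidase, was higher in OE_control than in sh_control (33.6, 22.6 and 25.7 against 13.6, 13.9 and 13.3 FPKM; 0.94, adjusted p = 0.042). That call was lost, at 0.0871 to 0.142, without any 1 of these 6 libraries other than OE_control replicate 2. IMMP1L was at 18.4, 25.2 and 26.8 FPKM in OE_IFI6, which overlapped with OE_control (log2 fold change -0.21). All of these lay above sh_control (OE_IFI6 against sh_control 0.73, which did not pass). In sh_IFI6 it was at 18.7, 11 and 25.4 FPKM, so OE_control did not stand apart from the other groups. Of 11 further proteolysis and folding genes, 0 passed (median log2 fold change -0.04).

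Of 20 further dynamics and mitophagy genes tested, 2 rose and 1 fell. BNIP3L (NIX), an outer membrane receptor for mitophagy, was at 12.9, 12 and 12 FPKM in OE_control and at 27, 32.6 and 22.4 FPKM in OE_IFI6. It was at 28, 25.1 and 28.3 FPKM in sh_control and at 23.5, 20 and 23.2 FPKM in sh_IFI6. The OE_control libraries were the lowest of the 12 for BNIP3L. It rose by 1.07 ± 0.13 against OE_control (adjusted p = 0.00072), OE_control was lower than sh_control by the same test (-1.08, adjusted p = 0.00082), OE_IFI6 against sh_control gave -0.0035, and the effects of overexpression and knockdown differed by 1.35 ± 0.19 (adjusted p = 0.0033). GDAP1, an outer membrane fission factor, was at 0.74, 1.31 and 1.16 FPKM in OE_control and at 2.1, 2.51 and 1.67 FPKM in OE_IFI6. It was at 1.52, 1.89 and 2.18 FPKM in sh_control. GDAP1 rose by 0.58 against OE_control (adjusted p = 0.037) and OE_IFI6 against sh_control gave 0.11. The call was lost in a fit of the 6 libraries alone (0.152) and without OE_control replicate 1 or 3 (0.118 and 0.0745) or OE_IFI6 replicate 1 or 2 (0.0898 and 0.122). MARCH5, a ubiquitin ligase of the outer membrane, was at 23.3, 27.1 and 23 FPKM in OE_control and at 18.5, 19.6 and 18.1 FPKM in OE_IFI6. It was at 21.6, 20.7 and 20.7 FPKM in sh_control. MARCH5 fell by 0.37 on the log2 scale (adjusted p = 0.047) and OE_IFI6 against sh_control gave -0.16. The call was lost without any 1 of the 6 libraries (0.0651 to 0.117) and in a fit of these alone (0.242).

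Of 16 genes of mitochondrial DNA maintenance and biogenesis, 1 fell. POLRMT, the mitochondrial RNA polymerase, was at 50.6, 50 and 52.7 FPKM in OE_control and at 34.1, 37.1 and 42.5 FPKM in OE_IFI6. It was at 40.3, 42.1 and 43.7 FPKM in sh_control and at 46.1, 48.6 and 47.9 FPKM in sh_IFI6. POLRMT fell by 0.43 ± 0.10 on the log2 scale (adjusted p = 0.022; lost without OE_control replicate 3 or OE_IFI6 replicate 1 or 2, at 0.0731, 0.0744 and 0.0635, and in a fit of the 6 libraries alone, at 0.181). OE_IFI6 against sh_control gave -0.15. The effects of overexpression and knockdown differed by -0.60 ± 0.14 (adjusted p = 0.044), a call lost in 11 of 12 fits that left out 1 library and without a variance trend (0.0544).

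Of 12 regulators of the mitochondrial stress response, 2 fell between OE_control and OE_IFI6. DDIT3, which encodes CHOP, was at 17.3, 19.1 and 21.8 FPKM in OE_control and at 3.38, 4.81 and 4.15 FPKM in OE_IFI6. It was at 5.25, 4.38 and 4.78 FPKM in sh_control and at 5.2, 6.61 and 5.64 FPKM in sh_IFI6. All OE_control libraries lay far above the other 9. DDIT3 fell by 2.0 ± 0.14 on the log2 scale (adjusted p = 1.2e-05), OE_control was above sh_control by 1.81 (adjusted p = 2.9e-05), OE_IFI6 against sh_control gave -0.19, and the effects differed by -2.23 ± 0.20 (adjusted p = 0.00023). ATF4 was at 329.9, 312 and 332 FPKM in OE_control and at 221, 247 and 276 FPKM in OE_IFI6. It was at 229 to 256 FPKM in sh_control. ATF4 fell by 0.39 ± 0.10 (adjusted p = 0.033), a call lost without OE_control replicate 1 or 3 (0.0736 and 0.0920), without OE_IFI6 replicate 1 or 2 (0.102 and 0.0800), under quantile normalization (0.0826) and in a fit of these 6 libraries alone (0.20). OE_IFI6 against sh_control gave 0.04. OE_control was above sh_control by 0.43 (adjusted p = 0.022; lost without OE_control replicate 1 or 3 or sh_control replicate 1 or 3, at 0.0588, 0.0665, 0.0750 and 0.0886, and in a fit of these groups alone, at 0.0551). ATF5 was at 2.94 to 3.37 FPKM in OE_control and 2.28 to 2.82 FPKM in OE_IFI6, and HSF1, the master heat shock factor, at 16.2 to 17.6 and 13.1 to 17.8 FPKM. Neither passed (-0.19 each, adjusted p = 0.40 and 0.41), and against sh_control they gave -0.26 and -0.12.

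Cytosolic counterparts of the chaperones were high in the same OE_control libraries. Of 16 cytosolic heat shock genes tested, 10 fell between OE_control and OE_IFI6, with a median log2 fold change of -0.99 (3.56% of all genes fell), and 9 were higher in OE_control than in sh_control, with a median of 0.87 (2.75% of all genes were). DNAJB1, an Hsp40, was at 242, 285 and 289 FPKM in OE_control and at 30.1 to 34 FPKM in the other 9 libraries, and fell by 3.07 on the log2 scale (adjusted p = 1.3e-08). HSPA1A, an inducible Hsp70, was at 83.2, 139 and 181 FPKM in OE_control and at 5.69 to 14.4 FPKM elsewhere, and fell by 3.90 (adjusted p = 9.6e-06). Reads of HSPA1A may be divided with its near-identical copy HSPA1B. HSPA8, the constitutive Hsp70, was at 1324, 972 and 1161 FPKM in OE_control and at 619, 483 and 535 FPKM in OE_IFI6, and fell by 1.07 (adjusted p = 0.0087). It was at 435, 420 and 436 FPKM in sh_control and at 667, 491 and 957 FPKM in sh_IFI6. The hairpin groups did not overlap (0.66, limma adjusted p = 0.82), and 1 sh_IFI6 library came near the lowest OE_control library. Against sh_control, OE_IFI6 gave -0.0022 for DNAJB1, -0.59 for HSPA1A and 0.34 for HSPA8, none of which passed. HSPD1 was thus high in the same 3 libraries as DNAJB1, HSPA1A and DDIT3. The part of the OE_control libraries' state in the fall of HSPD1 was not tested. Of 81 genes of the respiratory chain and ATP synthase, 0 passed (median 0.02), and of 78 mitochondrial ribosomal protein genes 5 rose (median 0.11), beside 4.1% of all genes. In the knockdown comparison 0 genes of any of these lists passed, as for all genes tested, and 0 of the tested transcripts of the 40 genes passed (0.0235% of messenger and 0.0462% of non-coding transcripts did).

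**Figure D5:**
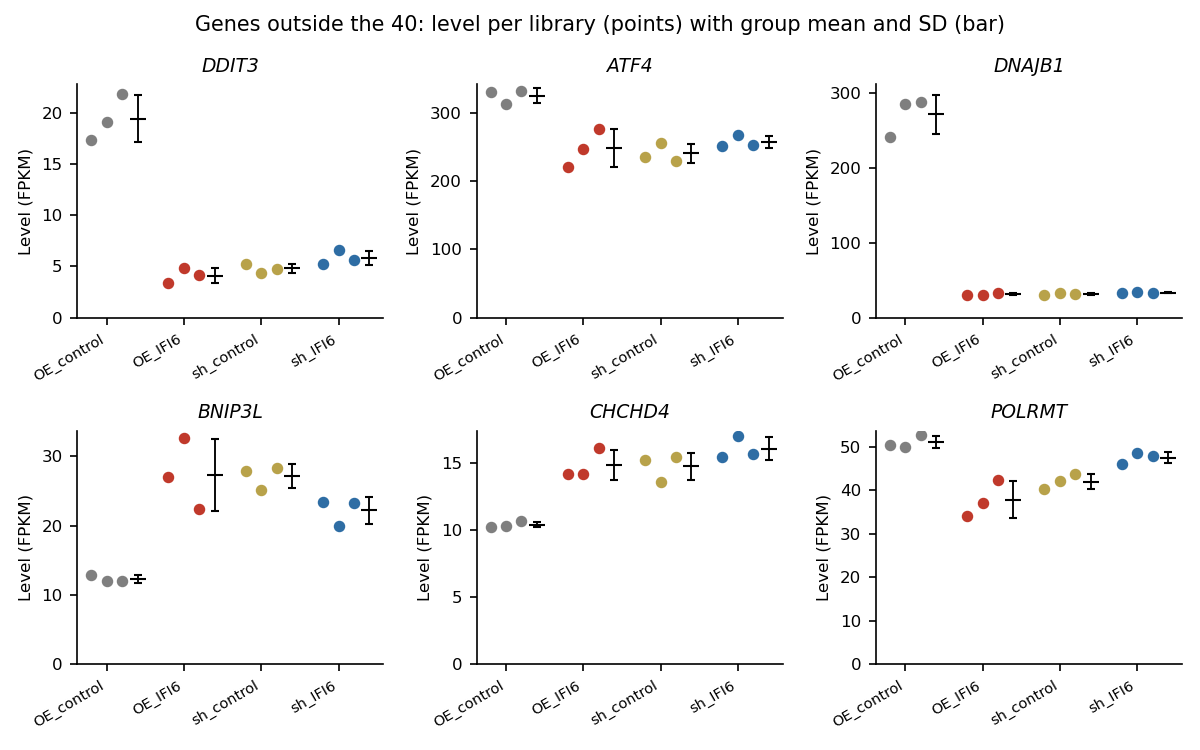
FPKM of DDIT3, ATF4, DNAJB1, BNIP3L, CHCHD4 and POLRMT, none of them among the 40 genes, in each of the 12 libraries by group (points), with the group mean and SD (bar). DDIT3 and DNAJB1 are high and BNIP3L and CHCHD4 low in the 3 OE_control libraries.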

How the data were processed

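Total RNA of 12 TE-1 libraries was measured in 4 groups of 3, taken from the labels. The deposited values are FPKM per gene and per transcript, made by the authors with HISAT2, StringTie, Cuffdiff and edgeR, per the submitters' processing notes. The sources used here give no versions, roles, build, annotation release, strand use or read counts, so the depth per library is unknown and no counting interval could be given. The gene symbols of the 40 genes matched the table, and their identifiers matched GENCODE 29.

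The 10925 of 19771 protein-coding genes whose average reached 1 FPKM were tested on log2(FPKM + 1) with limma 3.58.1 (R 4.3.3): 1 group-means model over all libraries (8 residual degrees of freedom), trended prior variance, two-sided, Benjamini-Hochberg adjustment over all genes tested, threshold 0.05. Fold changes are on that log2 scale, which understates changes of low genes. Transcripts were fitted in the same way within the messenger (17030 tested) and non-coding (6496 tested) transcript tables. The gene fit was also run on simulated gene values. These were drawn independently for each library, so the run could not show shared group states or divided reads, and it did not cover transcripts. In an exact permutation test 3 libraries against 3 cannot go below p = 0.1, so none was used. Replicate numbers were not used as pairs.

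The members and gene lists were chosen with earlier results of these data known. Described in full are genes called in any comparison, the gene of smallest overexpression p in each role group, up to 4 called genes per pathway list, and IFI6, ATF4, ATF5, DDIT3, HSF1, HSPA1A, DNAJB1 and HSPA8. Alternatives covered the pseudocount, low-value filter, scaling, variance model, libraries fitted, replicate block and each library left out. Promoters came from RefSeq (GRCh38.p14) and transcript models from GENCODE 29.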

Additional observations from a re-analysis of the deposited data

Results flagged for a closer look

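The effect of overexpression (OE_IFI6 minus OE_control) was compared with the effect of knockdown (sh_IFI6 minus sh_control) by the limma test of their difference. IFI6 (4.27, adjusted p = 3.8e-06), DNAJB1 (-3.14, 5.3e-07), HSPA1A (-3.87, 0.00031) and HSPA8 (-1.73, 0.0097) passed it and were not flagged. Flagged were 4 further genes described above that passed. HSPD1 differed by -0.86 on the log2 scale, DDIT3 by -2.23, BNIP3L by 1.35 and POLRMT by -0.60, and HSPD1 is the one of the 40 mitochondrial genes among them. For each of the 4 flagged genes the 3 OE_control libraries were the extreme ones of the 12. When any 1 of the 12 libraries was left out, the limma adjusted p of the difference stayed under 0.05 for 3 of these genes. It ran from 0.0124 to 0.0451 for HSPD1, 0.000457 to 0.00141 for DDIT3 and 0.00148 to 0.0141 for BNIP3L. For POLRMT it ran from 0.0141 to 0.121, and the call was lost in 11 of 12 fits.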

How the results depend on the processing

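The number of the 40 genes called between OE_IFI6 and OE_control was 2 under quantile normalization and 1 to 2 when any 1 library was left out. Between the controls it was 1 to 2 when any 1 library was left out. For the difference of the effects it was 2 with a minimum mean of 5 FPKM, 0 under quantile normalization, 2 with robust variance estimation and 1 to 2 when any 1 library was left out. The number of member transcripts called in the overexpression comparison was 1 without a low-value filter, 3 with a minimum mean of 5 FPKM, 1 with the replicate block and 1 to 2 when any 1 library was left out. Signs turned only for values that had not passed. TFAM with overexpression ran from -0.0924 (without OE_IFI6 replicate 2) to 0.50 when any 1 library was left out. IFI6 between the controls ran from -0.0725 to 0.26, and was below 0 without OE_control replicate 1 or 3 or sh_control replicate 3. Between OE_IFI6 and sh_control, HSPD1 gave -0.0382 under quantile normalization and ran from -0.0679 to 0.0869 when any 1 library was left out, below 0 without OE_IFI6 replicate 2 or sh_control replicate 1. HSPD1-201 gave -0.0252 under quantile normalization and ran from -0.0613 (without OE_IFI6 replicate 2) to 0.0917. The cause of these changes was not tested. Deviations of same-numbered libraries correlated at 0.087, 0.254 and 0.124 between OE_IFI6 and OE_control and at -0.043, -0.0095 and -0.034 between the hairpin groups, so not every pair was over 0.1 and the numbers were not taken to pair the libraries. With the replicate number as a block, calls over all genes went from 837 to 802 with overexpression, and the calls of OXA1L-207 (adjusted p = 0.119 against OE_control and 0.164 against sh_control), MARCH5 (0.0576) and the POLRMT difference (0.0503) were lost. Of the alternatives for single genes and transcripts, 74 lost the call, 6 gained it and 9 changed sign. The 848 counted as unchanged also take in medians of the 40 genes and transcript shares, which have no call to keep. For single genes and transcripts, unchanged meant the same direction and side of the threshold. No scaling moved the median of all genes by over 0.1 on the log2 scale. Depth is unknown, so genes near 1 FPKM, such as HSPE1 and GDAP1, are the least certain.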
